A study of Mus musculus with 6 samples.

Results

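RNA splicing and mRNA processing factors were compared between lateral ventricular choroid plexus of embryonic day 15 (E15) and adult mice. They were chosen from the gene ontology text of each transcript cluster, the set of exon probe sets that together measure 1 gene. A cluster was taken when its biological process text held "RNA splicing" or "mRNA processing" and did not hold "cell cycle". The gene-level table and the splicing index table together list 3956 clusters. Of these, 40 held either term, the cell cycle term removed 2 (Ern1 and Txnl4b), and 38 remained. The rule reads no measured value, but both tables are themselves lists selected on measured values, the gene-level table on a corrected p and a fold and the other on the splicing index. Of the 38 clusters, 14 are in the gene-level table, 30 in the splicing index table and 6 of these in both.

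The tissue came from healthy Swiss Webster mice and was hybridized to 6 Affymetrix exon arrays (3 per age), each with its own pool of animals. The labels give 30 embryos of mixed sex in each E15 pool and 10 females in each adult pool, whereas the supplementary description gives other pool sizes and unsexed embryos. Age and sex are therefore not fully separated. No treatment or genetic change was made at either age. The 3 arrays of an age were merged by the authors into 1 log2 value per cluster, so no replicate spread, error or test can be given from the tables used here, and 3 arrays an age limit its precision. The 2 values nearly mirror each other around 0 (the median size of their sum was 0.10 over the 38 clusters), so they show a difference and no level of expression. Differences are given as adult minus E15 on the log2 scale, so a negative difference means a higher value at E15, and a fold is the same difference as a linear ratio of the higher age to the lower. The gene-level table holds clusters that passed a corrected p of 0.05 and a fold of 2 in the authors' own test. The splicing index table was chosen on another score and also holds clusters below 2-fold.

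Nuclear transcripts lose their introns on the spliceosome, which is built from small nuclear ribonucleoproteins (snRNPs) and many assembly factors. Serine/arginine-rich (SR) proteins mostly favour the use of an exon and heterogeneous nuclear ribonucleoproteins (hnRNPs) often oppose it, while tissue-restricted regulators shift the balance between them. Cleavage and polyadenylation finish the 3′ end, and the exon junction complex marks the joined transcript for export and surveillance.

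Most of the factors had the higher value at E15. At the gene level 12 of 14 (85.7%) were higher at E15 and 2 were higher in adult, beside 51.2% of all 1805 clusters of that table. By the splicing index table, 22 of 30 (73.3%) were lower in adult at any size, beside 55.4% of all 3369 clusters. The differences were small by that table. Only 6 of those 30 (20.0%) reached 2-fold, 4 toward E15 and 2 toward adult, beside 38.1% of the table, 20.5% toward E15 and 17.6% toward adult. The median difference of the 30 was -0.36, beside -0.18 for the whole splicing index table, and the median over all 38 was -0.57, beside -0.16 for all 3956 clusters of the joined tables. The 8 factors found only in the gene-level table are past 2-fold by the selection of that table, which moves the median of the 38 away from that of the 30. Among the 12 gene-level factors higher at E15 the median fold was 2.20, beside 2.78 for all clusters of that table higher at E15, and 9 of the 12 had a fold below 2.5. Setting the median of each age in a table to 0 added 0.85 to every gene-level difference. Of the 14 factors 3 were then still past 2-fold, 1 toward E15 (Rnps1) and 2 toward adult (Apobec1 and Cpeb1). No sign could change, since every difference in that table is larger in size than the step. Over the whole gene-level table, 1160 clusters were then past 2-fold, 280 of them (24.1%) toward E15. By selection that table holds no difference below 2-fold, and its median difference of -1.01 lies at the edge of this gap. The step of 0.85 is therefore no estimate of an offset common to all clusters. The fall in the count toward E15 follows from the step and from folds close to 2. The same step added 0.16 to differences in the splicing index table, in which 22 of 30 factors stayed below 0, beside 50.5% of all clusters.

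**Figure D1:**
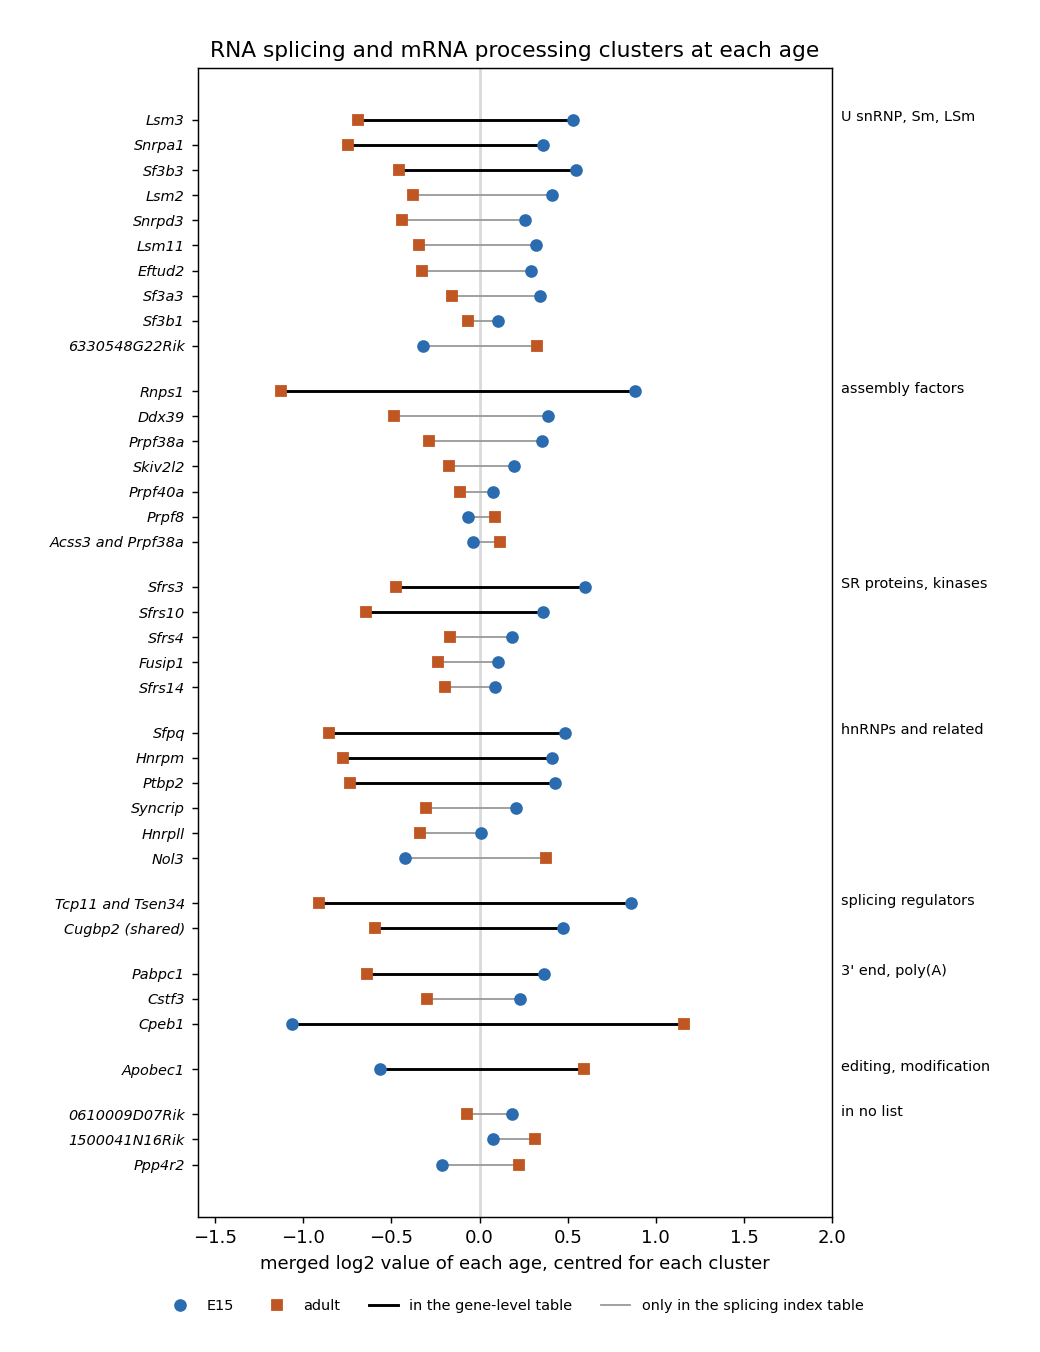
Merged log2 value of 37 of the 38 clusters at E15 (circles) and in adult (squares), centred for each cluster by the authors, with 1 line per cluster, grouped by role and ordered by difference within a role. Black lines mark the 14 clusters of the gene-level table, and E15 lies to the right of adult in 12 of them, Apobec1 and Cpeb1 being the exceptions.

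By selection, no factor of the gene-level table is below 2-fold. Just inside that limit were Sf3b3 at a fold of 2.01, Sfrs10 at 2.01 and Pabpc1 at 2.00, all 3 in that table only. Among those just outside it was Ddx39 at a fold of 1.83, toward E15. The split of the group by term was uneven. Of the 14 gene-level factors, 11 carried both terms and all 11 were higher at E15, and 3 carried mRNA processing alone, of which 1 was higher at E15 (Cugbp2). The other two, Apobec1 and Cpeb1, are the only factors past 2-fold toward adult, and neither is a spliceosome protein. The ontology text rests on electronic annotation alone for 35 of the 38 clusters. The remaining 3, Fusip1, Sf3b1 and Prpf8, were all below 2-fold.

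Upstream sequence of 5 of the factors past 2-fold is shown here as a description, and its part in the differences between the ages was not tested. The 5 were picked as examples after the sequences were seen. The sequences are from RefSeq (GRCm38.p6), 250 bases before the annotated start of the gene, 5′ to 3′ on the strand of the gene. Sfpq, Sfrs3 and Sfrs10 were higher at E15, Apobec1 and Cpeb1 in adult. Capitals mark each match, on either strand, to CCAAT (the CCAAT box), TATAAA (the TATA box), TGACGT (a core of the cyclic AMP response element), CCGGAAG (an ETS core) or GGGCGG (a GC box), and neighbouring or overlapping matches run together.
Sfpq, chr4:127021051-127021300, plus strand: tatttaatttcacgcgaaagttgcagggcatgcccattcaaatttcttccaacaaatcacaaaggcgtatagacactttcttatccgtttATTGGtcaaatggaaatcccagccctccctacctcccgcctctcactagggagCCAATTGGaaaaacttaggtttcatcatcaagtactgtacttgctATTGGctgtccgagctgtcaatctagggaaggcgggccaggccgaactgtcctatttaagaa
Sfrs3 (Srsf3), chr17:29032410-29032659, plus strand: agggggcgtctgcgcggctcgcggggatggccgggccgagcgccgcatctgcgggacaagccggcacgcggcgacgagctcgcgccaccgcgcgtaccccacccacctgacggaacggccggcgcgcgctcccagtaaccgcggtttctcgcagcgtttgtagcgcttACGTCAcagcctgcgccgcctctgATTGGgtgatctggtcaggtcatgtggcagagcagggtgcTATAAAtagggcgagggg
Sfrs10 (Tra2b), chr16:22266006-22266255, minus strand: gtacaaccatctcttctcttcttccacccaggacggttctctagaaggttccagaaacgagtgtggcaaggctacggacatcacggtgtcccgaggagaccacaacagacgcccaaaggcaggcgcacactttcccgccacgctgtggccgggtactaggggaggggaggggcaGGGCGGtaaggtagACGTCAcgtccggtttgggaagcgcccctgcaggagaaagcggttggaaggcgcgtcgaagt
Apobec1, chr6:122602445-122602694, minus strand: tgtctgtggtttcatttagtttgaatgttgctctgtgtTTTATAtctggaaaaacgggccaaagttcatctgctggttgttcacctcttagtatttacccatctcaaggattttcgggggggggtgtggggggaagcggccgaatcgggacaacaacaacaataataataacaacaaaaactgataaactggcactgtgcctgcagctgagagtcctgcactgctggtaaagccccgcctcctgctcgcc
Cpeb1, chr7:81454759-81455008, minus strand: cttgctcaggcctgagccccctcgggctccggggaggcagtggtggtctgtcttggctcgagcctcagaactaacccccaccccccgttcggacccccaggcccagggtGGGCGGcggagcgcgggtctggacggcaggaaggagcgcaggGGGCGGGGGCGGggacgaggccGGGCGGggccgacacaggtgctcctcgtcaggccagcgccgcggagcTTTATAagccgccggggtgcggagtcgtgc
The Sfpq sequence holds 4 matches to CCAAT and none of the other motifs, with a GC content of 45.2%. The Sfrs3 sequence, with a GC content of 69.6%, holds 1 match each to the first 3 motifs. The Sfrs10 sequence shares the match to the response element and holds 1 GC box. In Cpeb1 4 GC boxes and a TATAAA match lie in sequence with a GC content of 74.0%, while Apobec1 holds 1 TATAAA match and a GC content of 48.0%.

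Of the 35 factors with a cluster of their own, 27 matched a RefSeq promoter, with 30 promoters in all, since Lsm2 has 2 and Sfrs4 has 3 overlapping or neighbouring ones. A ratio of observed to expected CpG of at least 0.6 was found in 27 of the 30 (90.0%), beside 55.8% of the 3894 promoters of genes in either table and 34.0% of all 32851. The median ratio was 0.87, beside 0.65 for the genes of either table. The exceptions were Snrpa1 at 0.24, Apobec1 at 0.49 and Snrpd3 at 0.53. CCAAT was found in 33.3% of the 30 promoters, beside 34.7% of the promoters of either table and 33.8% of all promoters. TATAAA was found in 16.7%, beside 7.55% and 12.4%. TGACGT was found in 26.7%, beside 7.96% and 6.47%. CCGGAAG was found in 23.3%, beside 8.50% and 6.91%, and GGGCGG in 60.0%, beside 55.6% and 32.7%. These matches are a description of letters in a window, with promoters of 1 gene counted separately.

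Roles are counted over the joined tables, in which 54.1% of all clusters were lower in adult, 24.4% were past 2-fold toward E15 and the median difference was -0.16. Proteins of the snRNP core were measured by 10 clusters, 9 of them lower in adult, with a median difference of -0.68. Past 2-fold toward E15 were 3, of which 2 (Lsm3 and Sf3b3) are in the gene-level table only. Lsm3, a subunit of the LSm ring that holds U6 RNA, had 0.53 at E15 and -0.69 in adult, a difference of -1.22 and a fold of 2.33. Snrpa1, the U2 snRNP protein A′, had 0.36 at E15 and -0.75 in adult, a fold of 2.16. Sf3b3, a subunit of the SF3b complex that helps U2 snRNP hold the branch point, had 0.55 at E15 and -0.46 in adult, a fold of 2.01. In the same direction but below 2-fold were Lsm2 (-0.78), the Sm core protein Snrpd3 (-0.70), Lsm11 of the U7 snRNP of histone mRNA processing (-0.66), the U5 snRNP GTPase Eftud2 (-0.62), Sf3a3 (-0.50) and Sf3b1 (-0.17). The single factor of this role higher in adult was 6330548G22Rik, named Snrnp35 in RefSeq, a protein of the minor spliceosome. Its difference of 0.65 came with 3 probe sets behind its splicing index.

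Assembly factors were measured by 7 clusters, 5 lower in adult and 2 higher, with a median of -0.37. Rnps1, an RNA-binding protein of the exon junction complex that activates splicing, had the largest difference of all 38 factors toward E15. Its value was 0.88 at E15 and -1.13 in adult, a difference of -2.01 and a fold of 4.02. No other factor of this role reached 2-fold. Ddx39, an RNA helicase of mRNA export, differed by -0.87 and Skiv2l2, the helicase that feeds the nuclear exosome, by -0.37. Prpf8, the large U5 protein at the catalytic centre of the spliceosome, differed by 0.15, a fold of 1.11. Prpf38a had a cluster of its own at -0.64 and a second cluster, shared with Acss3, at 0.15. RefSeq places these genes on chromosomes 4 and 10, so the shared cluster is not assigned to either of them here.

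All 5 SR proteins and relatives were lower in adult, with a median of -0.35, and the 2 past 2-fold are in the gene-level table only. Sfrs3, named Srsf3 in RefSeq, had 0.60 at E15 and -0.47 in adult, a difference of -1.07 and a fold of 2.10. Sfrs10, which by its RefSeq accession is Tra2b, a homolog of the fly sex determination factor transformer-2, had 0.36 at E15 and -0.65 in adult, a fold of 2.01. Sfrs4 (-0.35), Fusip1 (-0.34) and Sfrs14 (-0.29) lay close together and well below 2-fold.

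Among 6 hnRNPs and related proteins 5 were lower in adult, with a median of -0.84, and 3 were past 2-fold, of which Hnrpm and Ptbp2 are in the gene-level table only. Sfpq, a splicing factor and core protein of nuclear paraspeckles, had 0.49 at E15 and -0.85 in adult, a difference of -1.34 and a fold of 2.53. Hnrpm had 0.41 at E15 and -0.78 in adult, a fold of 2.28. Ptbp2, the polypyrimidine tract-binding protein of developing neurons, had 0.43 at E15 and -0.74 in adult, a fold of 2.24. Syncrip (-0.51) and Hnrpll (-0.35), a regulator known from lymphocytes, were in the same direction below 2-fold. Nol3 was the exception at 0.80, with 4 probe sets behind its splicing index. Nol3 is best known as a repressor of apoptosis.

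The 2 clusters of the regulator list were both past 2-fold toward E15, both carry more than 1 symbol, and only Cugbp2 is a developmental regulator. Cugbp2, named Celf2 in RefSeq, a regulator of exon use in brain, muscle and heart, had 0.48 at E15 and -0.59 in adult, a fold of 2.10, and shares its cluster with a predicted gene. The other cluster had 0.86 at E15 and -0.91 in adult, a difference of -1.77 and a fold of 3.41. It carries Tcp11, a testis-expressed gene on chromosome 17, and Tsen34, a subunit of the tRNA splicing endonuclease on chromosome 7, so this value is not assigned to either gene here.

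The ends of the transcript gave both directions. Pabpc1, the cytoplasmic poly(A)-binding protein, had 0.36 at E15 and -0.64 in adult, a fold of 2.00. Cstf3, a subunit of the cleavage stimulation factor, differed by -0.53. Cpeb1, which binds the cytoplasmic polyadenylation element and controls translation of stored mRNA, had -1.06 at E15 and 1.16 in adult. Its difference of 2.23, a fold of 4.68, was the largest in size of the 38. Apobec1, the cytidine deaminase that edits apolipoprotein B mRNA, had -0.56 at E15 and 0.59 in adult, a difference of 1.16 and a fold of 2.23. None of the 4 factors outside the role lists was past 2-fold. Among them were the SF3b subunit 0610009D07Rik (Sf3b6 in RefSeq, -0.26), 1500041N16Rik (Wdr83 in RefSeq, 0.24) and the phosphatase subunit Ppp4r2 (0.43).

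Genes of the same role lists that the ontology text did not choose gave 45 further clusters. Of these 29 were lower in adult and 16 higher, with a median of -0.52. At the gene level 8 of 12 (66.7%) were higher at E15 and 4 in adult, beside 51.2% of that table. By the splicing index table, 23 of 36 (63.9%) were lower in adult, beside 55.4%, and 4 of the 36 were past 2-fold, beside 38.1% of the table. The genes named from these lists were chosen after their values were seen. In the hnRNP list all 8 further clusters were lower in adult and 6 were past 2-fold, so that 13 of 14 clusters of the list, Nol3 being the exception, had the higher value at E15. Rbmx (-1.43), Hnrpdl (-1.32), Hnrnpd (-1.31), Ewsr1 (-1.30) and the paraspeckle protein Pspc1 (-1.07) were among those past 2-fold. Matr3, a nuclear matrix protein that binds RNA, had the smallest difference of the 8 at -0.43. In the SR list the kinase Clk2, which phosphorylates SR proteins, differed by -1.31, and all 9 clusters of that list were below 0, from -1.31 to -0.01. The last is a cluster whose accession is that of Srsf12.

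The splicing regulators divided by direction. Lower in adult were 6 of the 11 further clusters, with Tia1 at -1.18 and Ncl at -1.02 past 2-fold, and with Elavl4 (-0.90) and Elavl2 (-0.81), RNA-binding proteins of neurons, below it. Higher in adult were 5. Ppargc1a, a transcriptional coactivator of mitochondrial genes that also carries RNA-binding motifs, differed by 1.94 and Rbm35a by 1.53. Rbm35a and Rbm35b (0.50) are the epithelial splicing regulators Esrp1 and Esrp2 of RefSeq. Mbnl1, which promotes adult exon patterns in muscle, differed by 0.96 and Khdrbs3 by 0.49. The remaining members of the Cpeb family were all toward adult as well, with Cpeb2 at 0.85, Cpeb4 at 0.92 and Cpeb3 at 1.57, a fold of 2.96. All 4 Cpeb genes thus had the higher value in adult, while Pabpc1 and Cstf3 of the same list were higher at E15. Of the exon junction, export and decay list, which leaves Rnps1 and Ddx39 to the assembly factors, 5 of 7 were lower in adult, from -0.78 for Thoc7 to 0.16 for Exosc3, and none of the 7 was past 2-fold. Zrsr1, a relative of the U2AF small subunit, was the only cluster of the snRNP list past 2-fold toward adult, at 1.38.

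**Figure D2:**
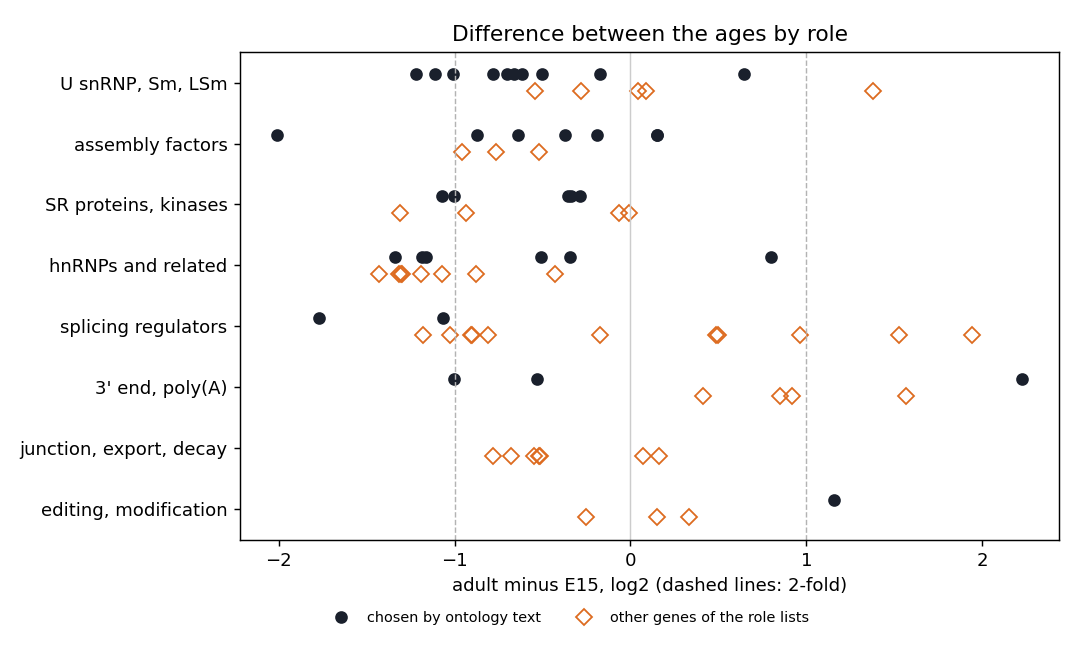
Adult minus E15 difference (log2) of the clusters chosen by ontology text (filled circles) and of the further genes of the same role lists (open diamonds), with 1 row per role and dashed lines at 2-fold. The hnRNP and SR lists lie left of 0 apart from Nol3 at 0.80, and the 3′ end list spreads from Pabpc1, at the dashed line toward E15, to Cpeb1 at 2.23.

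The splicing index is a second readout. The rule did not read it, but the table it comes from lists only clusters with an index of at least 0.5 in size, so it decided which of the 24 factors found only there could be chosen, and all comparisons are within that table. It is a signed score that the authors deposited for adult against E15, meant to find exons that do not follow their gene. Its scale and the exon behind it are not stated. The factors had small indices. The median size was 0.77, beside 0.90 for all 3369 clusters, and 4 of 30 (13.3%) reached a size of 1, beside 40.1%. Among them were the shared cluster of Tcp11 and Tsen34 at 1.71, Cpeb1 at -1.65 and Cugbp2 at 1.22. The next were 0610009D07Rik at 0.98, Cstf3 at 0.93, Nol3 at 0.90, Snrpa1 at -0.86, Lsm11 at -0.86 and Apobec1 at -0.85. Within bands of the difference the factors were also smaller. Below 0.5 the median size was 0.62 over 12 factors and 0.76 over 1037 clusters, from 0.5 to 1 it was 0.77 over 12 and 0.84 over 1047, and from 1 upward it was 1.04 over 6 and 1.17 over 1285. A median of 11.5 probe sets stood behind the index of a factor, from 2 for Ppp4r2 to 46 for Prpf8, beside 13 for the table.

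The sign of the index was opposite to the sign of the difference in 25 of the 30 factors (83.3%), beside 62.5% of the table. Below 2-fold, where the table was nearly even at 53.3% of 2084 clusters, 20 of 24 factors (83.3%) had opposite signs. Of the 22 factors lower in adult 19 had a positive index (86.4%), beside 64.0% of all clusters lower in adult. Among the 5 factors with like signs were Snrpa1, Lsm11, Prpf8 and Nol3. Snrpa1 thus differed from the other 5 factors past 2-fold that have an index. Whether opposite signs follow from the way the index is computed was not tested.

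**Figure D3:**
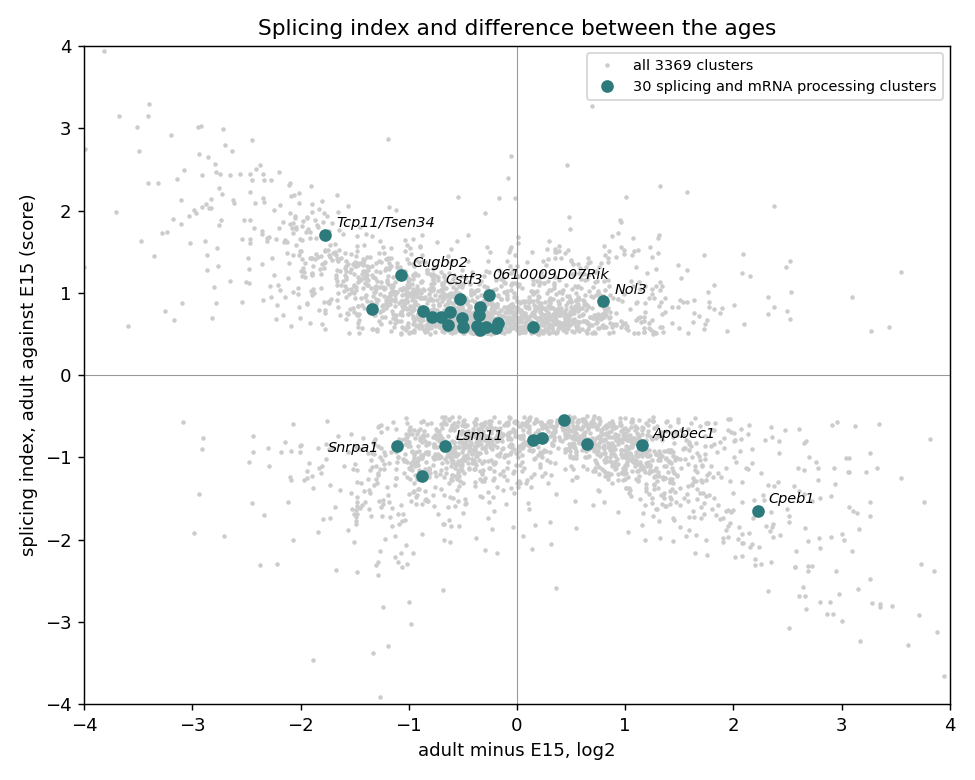
Splicing index (score, adult against E15) against the adult minus E15 difference (log2) for all 3369 clusters of the splicing index table (grey) and the 30 splicing and mRNA processing clusters in it (large points, 9 of the 10 with the largest index named); 16 clusters lie outside the axes. Of the large points 25 lie in the upper left or lower right, and 26 of 30 have an index below 1 in size.

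Other ontology entries of the factors come from the same source as the terms that chose them. They describe the group and are no separate evidence of a shared trait. A cellular component entry naming the spliceosome was found for 19 of 38 clusters (50.0%) and for 21 of all 3956. The nucleus was named for 34 of 38 (89.5%), beside 22.5% of all clusters, and an RNA binding function for 21 (55.3%), beside 2.73%. Protein binding was named for 28.9%, beside 27.7%.

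Other classes of the same tables are given for scale, since merged values allow no test between classes and a cluster can be in several of them. At the gene level 108 of 123 clusters with a cell cycle term (87.8%), 26 of 28 with DNA replication or repair and no cell cycle term (92.9%), 111 of 165 with regulation of transcription (67.3%) and 12 of 22 with translation (54.5%) were higher at E15. In the splicing index table the median difference was -0.82 for cell cycle, -0.63 for replication or repair, -0.44 for transcription and -0.21 for translation, beside -0.36 for the splicing factors. Past 2-fold were 47.4% of cell cycle, 30.8% of replication or repair, 31.2% of transcription and 23.6% of translation clusters, beside 20.0% of the splicing factors.

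**Figure D4:**
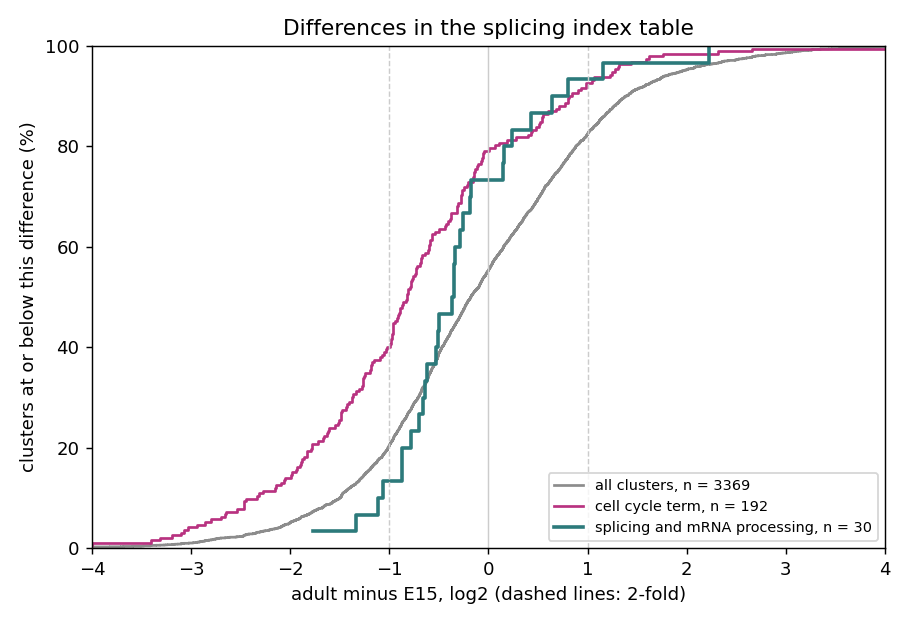
Cumulative share of clusters (%) of the splicing index table at or below each adult minus E15 difference (log2) for the 30 splicing and mRNA processing clusters, the 192 clusters with a cell cycle term and all 3369 clusters, with dashed lines at 2-fold. The splicing factors pass 0 at 73.3%, close to the cell cycle curve, but only 4 of 30 lie at or below -1.

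Transcripts that mark cell types also differed between the ages. Of 14 markers of choroid plexus epithelium 5 were in the tables, all higher in adult, from 0.32 for Trpm3 to 4.78 for Kl, and none of them was higher at E15. Ttr, the most abundant epithelial transcript, is in neither table, and genes in neither table were not analysed here. Of 22 markers of proliferating cells 19 were in the tables, all higher at E15 (median -2.47, from -4.65 to -0.55). All markers found were also higher at E15 for neural progenitor (5 of 10), erythroid (8 of 12), mesenchyme and matrix (8 of 11) and endothelium (5 of 9), with medians of -1.54, -2.54, -1.86 and -1.34. Of all clusters of the joined tables, 54.1% were lower in adult. Most of these markers are in the gene-level table, so they are past 2-fold by selection, which moves the medians away from 0. This holds for 18 of 19 proliferating, 4 of 5 neural progenitor, 6 of 8 erythroid, 6 of 8 mesenchyme and 4 of 5 endothelium markers. Neuron (10 of 19, 5 in each direction) and macrophage and MHC class II markers (6 of 10, 3 in each direction) were mixed, and the 3 of 7 oligodendrocyte markers found were higher in adult. Elavl4 is in both the neuron list and the splicing regulator list. None of the 38 factors is a marker in these lists. The part of these cells in the differences of the splicing factors was not tested, and in pooled whole tissue fewer cells of a type and less RNA per cell cannot be told apart.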

How the data were processed

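RNA of pooled choroid plexus was amplified and hybridized to 6 exon arrays. The authors computed gene-level log2 values by RMA (robust multi-array averaging) in Affymetrix Power Tools, merged the 3 arrays of each age and deposited 1 log2 value per age, centred for each cluster. The splicing index, a score, was deposited by the authors from exon-level values after an analysis of variance. Genome build and versions are not given in the sources used here. The deposited fold changes and directions in the tables were not used, and 0 columns hold a single array.

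Tables were joined by cluster (1218 clusters are in both, with equal values). Ontology text was searched with case ignored. In 5 clusters it is longer than 32000 characters and may be cut. Role and marker lists were matched by file symbol or by RefSeq name (40 of 41 symbols of the 38 clusters matched). The clusters and lists were chosen with earlier results of these data known. The rule for named genes took every factor at least 2-fold different, the largest difference of each role in each direction and the 10 largest splicing indices. Other factors of a role are named beside them to account for the group, after their values were seen. A cluster of the 38 and 1 gene of the role lists are counted but not reported here by name. The code that applies the rule, joins the tables and counts was checked on simulated tables with known members, which is no test of the counts themselves. The alternatives were other fold thresholds, choices of terms, symbols and annotations, re-centring, probe set and index minimums. A count or median was taken as moved past a factor of 1.5, a share outside its Wilson interval at 95%. Software was matplotlib 3.10.9, scipy 1.17.1, numpy 2.4.6 and Python 3.11.15.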

Additional observations from a re-analysis of the deposited data

How the results depend on the processing

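No paired analysis was possible because the values of the arrays of an age are merged, and for the same reason no array could be left out. Of 59 alternative values 38 stayed within the limits set, 20 moved and 1 reversed. At 3-fold the gene-level counts were 2 toward E15 and 1 toward adult, and 1 and 1 in the splicing index table. At 1.5-fold the latter were 11 and 4. Without electronic annotation only 3 factors remain, and the counts were 0 in each direction of both tables, with a median of -0.17. With RNA splicing alone the counts toward adult were 0 in both tables, and with mRNA processing alone those toward E15 were 1 and 1. Without clusters of several symbols the count toward E15 in the splicing index table was 2. After re-centring the counts toward E15 were 1 in the gene-level and 2 in the splicing index table. The gene-level table holds no difference below 2-fold, so re-centring it gives no measure of a common offset. The median over the splicing index table alone was -0.36. Over whole role lists the median of the assembly factors was -0.58, and that of the 3′ end list turned from -0.53 to 0.85, since the list adds 3 Cpeb genes and Cpsf4l, all toward adult. Counts with exact term names, with the cell cycle clusters kept in and with 1 cluster per symbol were within the limits. Signal over background cannot be read from centred values.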

Other observations

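Among promoters of the genes in the gene-level table, a ratio of observed to expected CpG of at least 0.6 was found in 57.5% of 855 promoters of genes higher at E15 and in 48.8% of 857 of genes higher in adult. The clusters removed by the cell cycle term were Ern1, the stress sensor of the endoplasmic reticulum that splices Xbp1 mRNA, at a difference of 0.99 (a fold of 1.98), and Txnl4b, at -0.28. Both are in the splicing index table only.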
